A study of Mus musculus with 8 samples.

Results

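The cytosolic ribosomal protein genes code for the proteins that, with ribosomal RNA, make up the ribosome of the cytoplasm. They were taken as the protein-coding rows of the deposited gene count table whose symbol starts with Rps or Rpl followed by a subunit protein number, together with Rplp0, Rplp1, Rplp2 and Rpsa. This gave 84 genes of 56748 rows: 32 of the small subunit, 49 of the large subunit and the 3 acidic P stalk genes. Of these, 80 passed a filter on low counts and were tested among 13960 genes. The other 4 were Rpl24 with 64 counts over all 8 libraries, Rpl39l with 19, Rpl3l with 5 and Rpl10l with 0.

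A ribosome holds a single copy of nearly all of these proteins, so their genes are usually transcribed at matched high levels and rank among the most abundant messages of growing cells. Most of their mRNAs begin with a C followed by an unbroken run of pyrimidines, the 5′ terminal oligopyrimidine (TOP) tract, through which mTORC1 and the RNA-binding protein LARP1 control their translation. Free ribosomal proteins that are not built into a ribosome are degraded, and a few, Rpl5 and Rpl11 above all, can bind the ubiquitin ligase MDM2 and thereby stabilise p53.

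The libraries came from cardiac fibroblasts of C57BL/6J mice of wild-type genotype, taken at an age of 1 day, isolated by collagenase digestion and adherence to plastic and grown as primary cultures. 4 cultures were left untreated and 4 received recombinant TGF-β1 at 10 ng/mL for 48 h, a common way to turn fibroblasts into contractile, matrix-producing myofibroblasts in a dish. The series text states that the replicates came from different litters. Messenger RNA was enriched with oligo(dT) before sequencing, so the values describe mRNA amounts and not ribosomes or translation.

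The TOP tract can be read around the transcription starts of these genes. The RefSeq promoter table (build GRCm38.p6) matched 64 of the 84 by symbol. The windows below hold the 15 bases before the annotated start and the first 15 bases from it on, and capitals mark a run of at least 5 pyrimidines that opens with C within 5 bases of the start. They show the start of Rps6, whose protein is phosphorylated downstream of mTORC1, 4 clear examples (Rpl28, Rplp2, Rpl38 and Rpl27a), and the paralogue pairs Rps27 with Rps27l and Rpl22 with Rpl22l1, for which treated and untreated libraries are compared further on. For Rps27l and Rpl22 the table lists more than 1 start, and the first is shown.
Rps6 (chr4:86857353-86857382, minus strand): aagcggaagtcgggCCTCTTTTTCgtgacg
Rpl28 (chr7:4792950-4792979, plus strand): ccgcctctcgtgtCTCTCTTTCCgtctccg
Rplp2 (chr7:141447636-141447665, plus strand): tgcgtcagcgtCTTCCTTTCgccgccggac
Rpl38 (chr11:114668565-114668594, plus strand): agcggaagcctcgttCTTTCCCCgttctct
Rpl27a (chr7:109519180-109519209, plus strand): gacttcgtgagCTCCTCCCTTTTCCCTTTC
Rps27 (chr3:90213634-90213663, minus strand): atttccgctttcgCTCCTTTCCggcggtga
Rps27l (chr9:66946071-66946100, plus strand): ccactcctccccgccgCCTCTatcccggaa
Rpl22 (chr4:152324421-152324450, plus strand): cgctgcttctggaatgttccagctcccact
Rpl22l1 (chr3:28805493-28805522, plus strand): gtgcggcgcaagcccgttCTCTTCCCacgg

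In 13 of the 64 ribosomal protein genes (20.3%) the annotated start itself was a C followed by at least 4 pyrimidines, against 3.01% of the 27025 genes in the table and 2.85% of the other tested genes. The run can open further upstream, as it does in Rps6, Rpl28, Rplp2 and Rps27. With the start allowed to lie up to 5 bases off, 29 of 64 (45.3%) held it, against 21.2% of all genes and 24.0% of the other tested ones. Among the letters searched on both strands of the 300-base promoters, CCGGAAGT, the ETS-factor core, stood in 12 of 64 (18.8%, all genes 4.31%, other tested genes 8.89%) and AAGATGGCG, the YY1 core, in 4 (6.25%, all genes 1.64%, other tested genes 3.46%). TATAAA stood in 7 (10.9%, all genes 15.7%, other tested genes 8.69%). Of the tested genes with the run near the start, 10 of 29 were higher after TGF-β1 with a median log2 fold change of 0.10. Of those without it, 13 of 31 were higher, with a median of 0.11.

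In the whole count table, libraries held 14340740 to 17176898 counts, and no 2 libraries were copies of each other. All 8 genes chosen to check the treatment rose, among them Ltbp2, a latent TGF-β binding protein (log2 fold change 2.19), and Acta2, smooth muscle actin (0.70). Of the fibroblast markers 10 of 10 were detected in every library, Fn1 and Col1a1 included. All 12 cell division genes fell, with a median log2 change of -2.66. Untreated replicate 1 stood apart: ribosomal RNA rows and Lars2 took 0.0348% of its counts, against 2.39% to 2.72% in the other untreated and 1.19% to 2.83% in the treated libraries.

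TGF-β1 was followed by a small rise of many ribosomal protein mRNAs. 33 of the 80 tested genes were higher (41.2%, against 17.6% of all genes tested), and 2 were lower (2.5%, against 18.5%). The 33 were 15 of 32 small subunit genes, 15 of 45 large subunit genes and 3 of 3 stalk genes, and the 2 lower genes, Rpl22l1 and Rpl29, are both of the large subunit. These calls rest on edgeR's quasi-likelihood test with p-values adjusted over all genes, at a threshold of 0.05. At an unadjusted p under 0.05, 39 were higher and 2 lower. The median log2 fold change was 0.12 for the 80 genes and 0.01 for all genes tested, and 72 of the 80 values were above 0, against 51.2% of all genes. The size was modest: the called rises ran from 0.10 to 0.66 on the log2 scale with a median of 0.15, against 0.25 for all genes called higher, and 31 of the 33 were no larger than the 1.23-fold of Rpl30. All 4 treated libraries lay above all 4 untreated ones in 23 of the 80 (28.7%, against 16.5% of all genes) and below them in 2 (all genes 17.4%).

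**Figure D1:**
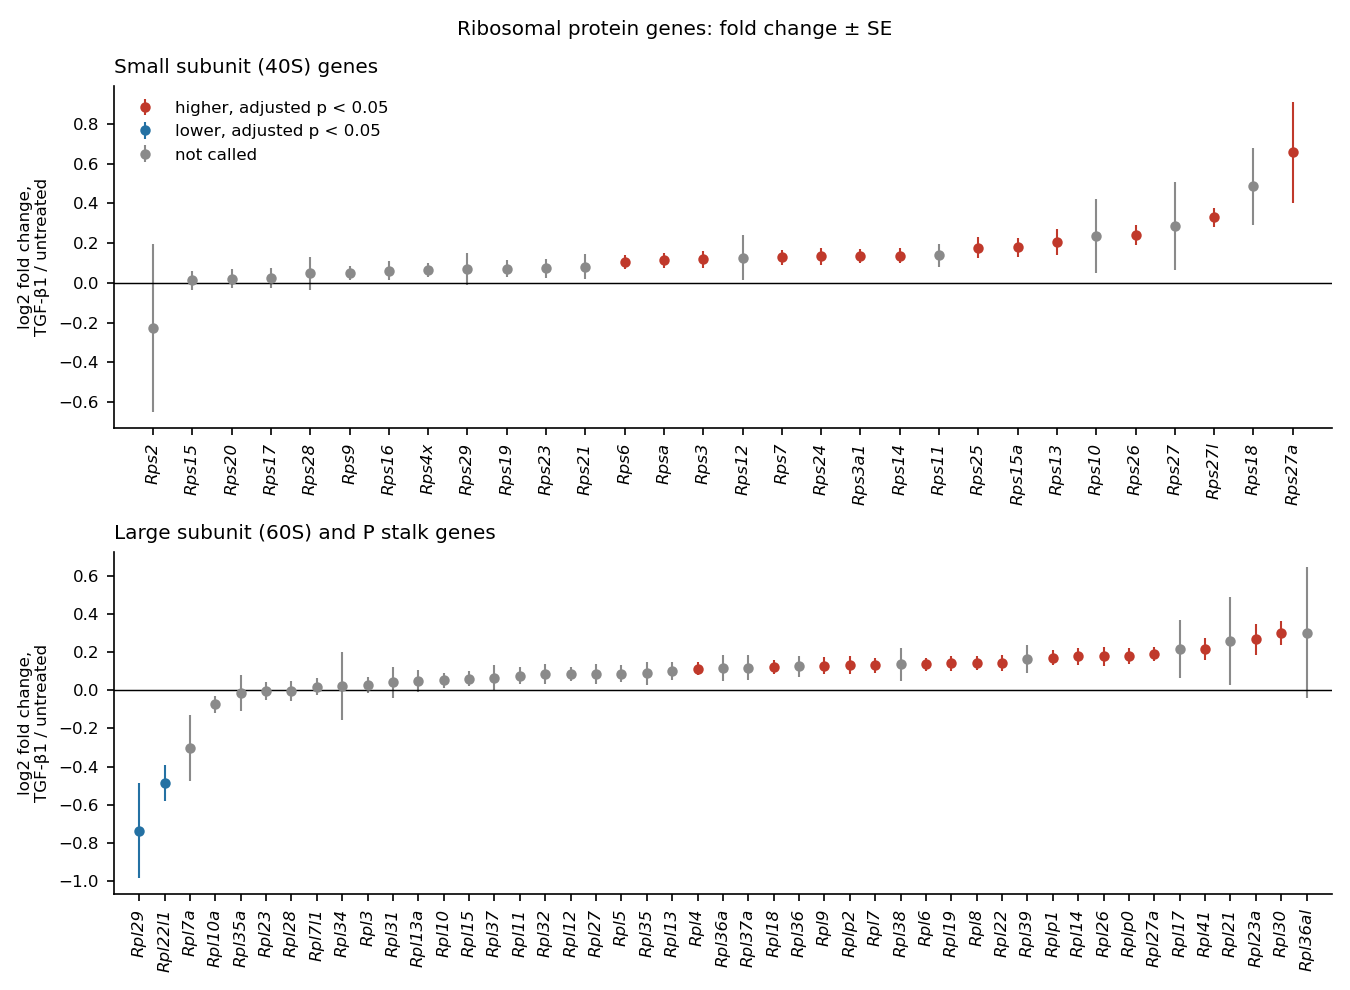
Log2 fold change (TGF-β1 over untreated) ± standard error for 77 tested ribosomal protein genes, ordered by value, small subunit above and large subunit with P stalk below; red and blue mark genes called higher and lower, grey those not called. Most genes sit slightly above 0, while Rpl22l1 and Rpl29 lie well below it and a few genes with long error bars, such as Rps2 and Rps27a, stand at the ends.

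Of the small subunit genes, Rps27l showed the firmest rise. The gene (ENSMUSG00000036781, chr9:66853368-66856798 in GRCm39, plus strand) codes for a close relative of Rps27 and is known as a p53 target. Its level in CPM, which here are counts scaled to library size with TMM factors, was 129.1, 147.2, 148.7 and 142.7 in the untreated libraries and 185.4, 167.2, 174.9 and 186.0 in the treated ones. All treated values lay above all untreated ones, and the log2 fold change was 0.33 ± 0.048 (SE, n = 4 per group, edgeR adjusted p = 7.6e-06), or 1.26-fold. Rps26, a protein near the mRNA exit channel, had 307.0, 379.0, 342.5 and 360.3 CPM untreated and 408.7, 390.2, 405.4 and 435.0 CPM treated (log2 fold change 0.24 ± 0.050, edgeR adjusted p = 0.000632). Its groups did not overlap. Among the other called genes of this subunit, Rps3, Rps3a1, Rps7, Rps14, Rps15a, Rps24 and Rps25 had log2 fold changes from 0.12 to 0.18. Of these only Rps3 and Rps24 had overlapping groups. Without untreated replicate 1 the calls of Rps3 (edgeR adjusted p = 0.188) and Rps24 (0.0835) were lost. Rps7 lost its call in another fit that left out 1 library.

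Rps13 was also called (0.21 ± 0.066, edgeR adjusted p = 0.0167), but its groups overlapped, at 197.5 to 252.8 CPM untreated and 238.2 to 299.8 treated. Its call was lost without untreated replicate 1 (0.13, edgeR adjusted p = 0.0676) and without TGFb replicate 4 (0.15, 0.0827). Rps6, whose start is shown above, rose by a log2 value of only 0.10 ± 0.035 (edgeR adjusted p = 0.0251), from 685.1 to 737.7 CPM untreated to 744.6 to 785.8 CPM treated. The groups of Rps6 did not overlap, but its adjusted p was above 0.05 when any of untreated replicates 1 and 2 or TGFb replicates 2, 3 and 4 was left out, reaching 0.0958 without untreated replicate 1. Rpsa, which is also known as a laminin receptor, rose by 0.11 (edgeR adjusted p = 0.0160) with no overlap, and its call was lost without untreated replicate 1 (adjusted p = 0.0752) or TGFb replicate 2 (0.0504). Rps19, the gene most often mutated in Diamond-Blackfan anaemia, was not called (0.071, edgeR adjusted p = 0.204).

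Rps27a, which is made as a fusion of ubiquitin and a small subunit protein, had the highest fitted value of all, 0.66 ± 0.25 (edgeR adjusted p = 0.0484), on very uneven libraries. Its CPM were 104.4, 126.0, 110.8 and 239.8 untreated and 142.6, 215.6, 413.4 and 149.1 treated. Untreated replicate 4 lay above 3 of the 4 treated libraries, and TGFb replicate 3 stood far above all others. Without TGFb replicate 3 the log2 fold change was 0.22 (adjusted p = 0.436), and without untreated replicate 4 it was 1.02 (0.0016). The call was also lost without untreated replicate 1 (0.117), 2 (0.106) or 3 (0.145), or TGFb replicate 2 (0.0648).

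Of the large subunit genes, Rpl27a (ENSMUSG00000046364, chr7:109118354-109121574, plus strand) rose with little spread among treated libraries. It had 430.2, 486.6, 472.2 and 484.2 CPM untreated and 527.7, 537.2, 537.2 and 536.9 CPM treated (log2 fold change 0.19 ± 0.039, edgeR adjusted p = 0.000463). The treated libraries lay close together, all above the untreated ones. Rpl30, which binds its own transcript in yeast, had the largest called value in this subunit on its own row, 0.30 ± 0.064 (edgeR adjusted p = 0.000682). Its levels were 74.7, 86.1, 98.7 and 86.1 CPM untreated and 112.3, 106.7, 95.8 and 110.9 CPM treated. Only TGFb replicate 3 overlapped the untreated range.

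Rpl23a (0.27 ± 0.082, edgeR adjusted p = 0.0137) and Rpl41 (0.22 ± 0.057, adjusted p = 0.0045), the latter coding for the smallest ribosomal protein, were called with overlapping groups. The untreated values of Rpl23a ran from 211.1 to 319.1 CPM and those of Rpl41 from 628.7 to 818.7 CPM. Without untreated replicate 1 the value of Rpl23a was 0.15 (adjusted p = 0.0343), and without TGFb replicate 2 its adjusted p was 0.0514. The exons of Rpl23a overlap those of genes on the other strand, Tlcd1 among them, over 78.1% of their length. The sources used here do not say whether reads were counted by strand, so reads of Rpl23a and its antisense neighbour cannot be told apart. The same limit holds for Rpl18 (52.4% of exonic bases antisense to other genes), Rpl5 (49.8%), Rps25 (43.0%) and Rps27a (40.8%), among others. In 33 of the 84 genes over 10% of the exonic bases overlap other genes, counting both strands.

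Rpl5 and Rpl11, which form the 5S ribonucleoprotein with 5S rRNA, were not called. Rpl5 had 494.3, 574.2, 582.0 and 569.7 CPM untreated and 589.2, 605.7, 574.0 and 590.4 CPM treated (0.088, edgeR adjusted p = 0.130), and Rpl11 had a log2 fold change of 0.077 (0.181). For Rpl5, untreated replicate 1 alone lay clearly below the rest. Other called genes of the large subunit, Rpl4, Rpl6, Rpl8, Rpl9, Rpl14, Rpl18, Rpl19 and Rpl26, had log2 fold changes from 0.11 (Rpl4) to 0.18 (Rpl26). Of these, Rpl9 had overlapping groups. Without untreated replicate 1 the calls of Rpl4 (edgeR adjusted p = 0.0508), Rpl9 (0.123) and Rpl18 (0.0692) were lost. The 45 genes of both subunits that were not called ran from -0.30 for Rpl7a to 0.49 for Rps18, whose adjusted p was 0.0543 in edgeR.

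All 3 P stalk genes rose. Their proteins form the flexible arm of the large subunit that recruits translation factors with GTPase activity. Rplp0, the base of the stalk, had 1783.8, 2099.6, 2080.2 and 2040.1 CPM untreated and 2292.2, 2271.3, 2258.1 and 2249.5 CPM treated (log2 fold change 0.18 ± 0.041, edgeR adjusted p = 0.00136). Rplp1 had 992.1, 1161.3, 1104.4 and 1142.2 CPM untreated and 1213.7, 1254.6, 1234.9 and 1256.5 CPM treated (0.17 ± 0.041, edgeR adjusted p = 0.00205). In both genes the groups did not overlap, and untreated replicate 1 was the lowest library. Rplp2 rose by 0.13 ± 0.048 (edgeR adjusted p = 0.0346) with overlapping groups, 240.8 to 289.1 CPM untreated and 281.7 to 300.4 CPM treated. The call of Rplp2 was lost without untreated replicate 1 (adjusted p = 0.1004) or 3 (0.166), where its log2 fold change was 0.083, and without TGFb replicate 2 (0.0791), 3 (0.0712) or 4 (0.0606).

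**Figure D2:**
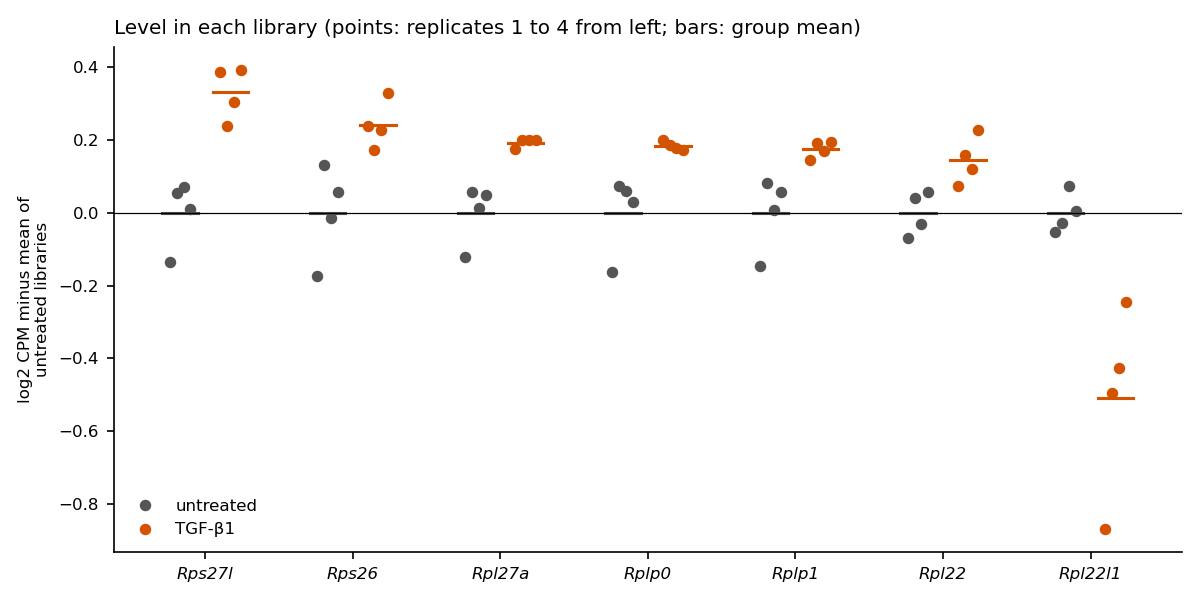
Level of 7 ribosomal protein genes in each library, as log2 CPM minus the mean of the 4 untreated libraries; grey points are untreated and orange points TGF-β1 libraries, replicates 1 to 4 from left to right, and bars are group means. Each treated point lies outside the untreated range of its gene, above it for 6 genes and below it for Rpl22l1, whose lowest library is TGFb replicate 1. All 7 were taken from the genes without overlap between groups, so their separation does not describe the family. Of the 80 tested genes, 23 lay wholly above (28.7%, all genes 16.5%) and 2 wholly below (2.5%, all genes 17.4%).

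In 1 pair of paralogues the 2 genes moved in opposite directions. Rpl22l1 (ENSMUSG00000039221, chr3:28859585-28861573, plus strand) codes for a substitute of Rpl22 that can be built into ribosomes in its place, and Rpl22 protein is known to repress Rpl22l1. Rpl22l1 had 27.0, 27.5, 29.4 and 28.1 CPM untreated and 15.3, 19.8, 20.8 and 23.6 CPM treated, and fell by 0.49 on the log2 scale (SE 0.093, edgeR adjusted p = 0.000242), or to 0.714-fold. Rpl22 had 208.3, 224.6, 213.9 and 227.2 CPM untreated and 229.9, 243.6, 237.2 and 255.7 CPM treated (0.15 ± 0.042, edgeR adjusted p = 0.00842). Neither gene overlapped between groups. The log2 ratio of Rpl22l1 to Rpl22 was -2.96 ± 0.0778 (SD, n = 4) untreated and -3.62 ± 0.208 treated, a difference of -0.65 (2-sided exact permutation p = 0.0286, the smallest this design allows, 0.0429 after adjustment over 3 pairs). Of the coding 100-base stretches of Rpl22l1, 59.2% also occur elsewhere in the genome, and 36.5% of its exonic bases overlap genes on the other strand; none of the stretches of Rpl22 do.

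The ratio of Rpl7l1, which takes part in large subunit assembly, to Rpl7 differed by -0.11 (exact permutation p = 0.0286, adjusted 0.0429), with no overlap between groups. Rpl7 rose (0.13, edgeR adjusted p = 0.0114), whereas Rpl7l1 was at 0.020 (0.773). The ratio of Rps27l to Rps27 differed by 0.02 (exact permutation p = 0.886). Rps27 itself was very uneven, at 51.2, 114.3, 141.9 and 138.0 CPM untreated and 174.1, 145.7, 70.4 and 153.3 CPM treated. Without TGFb replicate 3 Rps27 reached a log2 fold change of 0.50 (edgeR adjusted p = 0.0470). The tissue-restricted paralogues were close to undetected: Rpl3l, a striated muscle form of Rpl3, had 5 counts in all, Rpl39l, best known from male germ cells, had 19, and Rpl10l, a testis form of Rpl10, had none. Their partners Rpl3 (0.030), Rpl39 (0.16) and Rpl10 (0.053) were not called. Rpl39 passed without untreated replicate 2 (edgeR adjusted p = 0.0313) or TGFb replicate 2 (0.0196). Rpl36al stood at 0.531 to 1.196 CPM and Rpl36a at a log2 fold change of 0.12, neither of them called, with Rpl36a passing without untreated replicate 2 (0.0262). The X-linked Rps4x, also not called (0.064), passed without TGFb replicate 1 (0.0440).

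Although most of these proteins are built into the ribosome in equal numbers, the deposited FPKM values, which are levels per length, were very unequal. Averaged over the 8 libraries, the highest were Rplp1 at 2307 FPKM, Rplp0 at 1266, Rps3a1 at 768, Rps15 at 691 and Rpl41 at 638. The lowest tested genes were Rpl36al at 0.617 FPKM, Rpl21 at 0.646, Rps10 at 1.39, Rpl29 at 1.69 and Rpl34 at 1.96. The order also depends on the gene length in the table, by which FPKM are divided and which ranged from 383 bases for Rpl36 to 6270 for Rps15a.

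Most of the family, abundant and scarce genes alike, shared a feature that the rule did not use: coding sequence that is copied elsewhere in the genome. Ribosomal protein mRNAs have been reverse-transcribed into the mammalian genome very often, leaving many intronless processed pseudogenes. Of the 79 tested genes with a coding sequence of at least 100 bases, 68 had over 10% of their 100-base stretches elsewhere, with a median of 162.9 FPKM, against 256.9 FPKM for the 11 others. All stretches were found elsewhere in 24 genes, among them the abundant Rps6, Rps16 and Rpl13. Over the 79 genes the copied share and the level per length were only weakly related (Spearman's rho -0.11, given as a description). For each of the 84 genes, all 50-base stretches of the main coding sequence (GENCODE M39) were searched in GRCm39 outside the gene, and rows of the count table whose exons hold at least 20% of them were listed as copy rows if annotated as pseudogenes or shorter than 2000 bases. There were 448 copy rows, of which 358 had counts, and they belonged to 73 ribosomal protein genes with counted copies. In 10 genes the copy rows held more counts than the gene's own row: Rpl34 (98.3% of the summed counts on copies), Rps10 (97.6%), Rpl29 (97.2%), Rpl24 (95.9%), Rps2 (94.0%), Rps18 (91.0%), Rpl26 (90.5%), Rpl21 (69.5%), Rpl35a (68.7%) and Rpl17 (67.4%). 4 of the 5 lowest tested genes per length are among them, and few counts on a gene's own row enter both measures. At the other end, none of the 100-base coding stretches of Rps3, Rps21, Rps27l or Rpl22 occurs elsewhere.

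Rps2 (ENSMUSG00000044533, chr17:24937090-24940903, plus strand), whose protein lies at the entry of the mRNA channel, gives the plainest case. Its own row had 59.7, 45.6, 69.1 and 79.9 CPM untreated and 97.1, 1.5, 85.5 and 34.7 CPM treated. The row of the processed pseudogene Rps2-ps13, on chromosome X from 51987465 to 51988346 as the table gives it, held 13070, 12642, 12808 and 14912 counts untreated and 13620, 15770, 13382 and 14648 counts treated, and 110852 over all libraries, against 7147 for Rps2. With the copy rows added, Rps2 stood at 941, 896, 946 and 983 CPM untreated and 1073, 1110, 1041 and 925 CPM treated. The within-group SD of log2 CPM went from 1.86 on the row to 0.0897 on the sum. The call changed from none (log2 fold change -0.23, edgeR adjusted p = 0.721) to higher (0.14 ± 0.045, edgeR adjusted p = 0.0174). Whether a given count on such a row came from the gene or from a transcribed copy was not tested.

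The same sums were formed for all 84 genes, an alternative chosen after the uneven rows were seen. In 6 of the 75 ribosomal protein genes with a mean of at least 10 CPM the within-group SD of log2 CPM was over 0.3, against 0.479% of the 9184 genes at that level. On the sums it was 2 of 79, Rps27a and Rpl7a. Besides Rps2, Rps18 (0.16, edgeR adjusted p = 0.0131), Rps12 (0.19, 0.0405) and Rpl12 (0.11, 0.0239) were called higher on the sums and not on their rows. Rpl29 was called lower on its own row (2.0 to 2.7 CPM untreated, 1.1 to 2.0 treated, log2 change -0.74, edgeR adjusted p = 0.0240), but with its copies added it stood at 65.0 to 76.8 CPM untreated and 51.8 to 81.8 treated (-0.047, adjusted p = 0.733). On its own row the call of Rpl29 was also lost without untreated replicate 1 (0.0643) or 2 (0.0597) or TGFb replicate 1 (0.0720) or 4 (0.0688). Over the whole family the sums gave 37 higher and 1 lower of 81 tested, with all 33 of the higher calls on single rows kept and Rpl22l1 still lower (-0.50). Rpl30, with 49.5% of its summed counts on copies, was still higher on the sum. Its log2 fold change there was 0.21, below the 0.25 of Rpl23a. The median log2 fold change on the sums was 0.12.

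**Figure D3:**
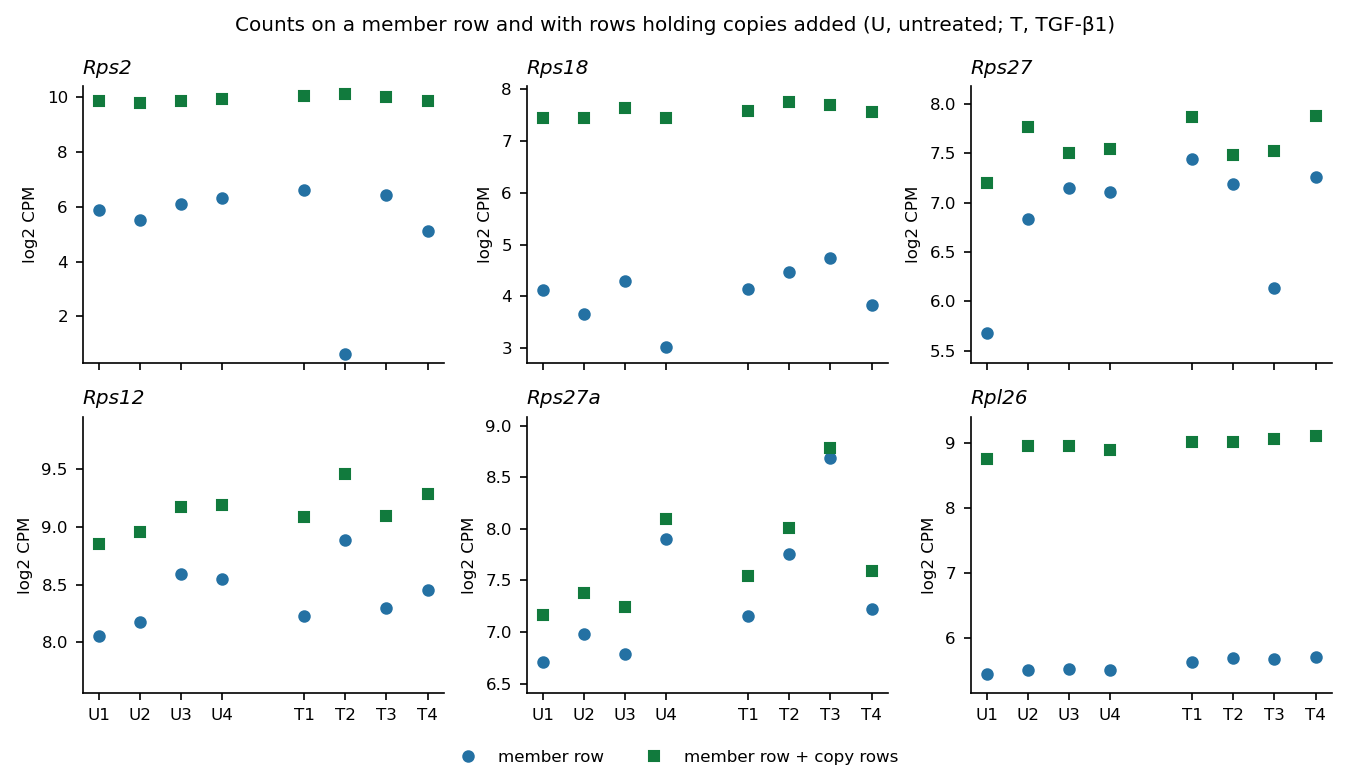
Log2 CPM of 6 ribosomal protein genes in each library (U1 to U4 untreated, T1 to T4 TGF-β1), as counted on the gene's own row (blue circles) and with the rows that hold copies of its coding sequence added (green squares); the scale differs between panels. For Rps2, Rps18 and Rpl26 most counts lie on copy rows; the sums of Rps2 and Rps18 are more even within groups than their rows, those of Rpl26 are not (within-group SD 0.0711 on the sum, 0.0333 on the row), and Rps27a stays uneven on the sum.

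Together the 84 genes took 3.19%, 3.49%, 3.41% and 3.46% of all counts in the untreated libraries and 3.41%, 3.53%, 3.47% and 3.52% in the treated ones, means of 3.39% ± 0.139 and 3.48% ± 0.0571 (SD, n = 4). The groups overlapped, so the share of the library did not separate them. Copy rows took another 0.607% ± 0.012 and 0.619% ± 0.0133. Summed as TMM-scaled CPM, the genes stood at 33021 ± 1807 untreated and 35877 ± 279 treated.

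The amount of the rise depended on 1 library and on the scaling. Untreated replicate 1 was the lowest untreated library for 66 of the 80 tested genes, with a median deviation of -0.12 on the log2 scale from the mean of its group. Without it, 23 genes were higher, 22 of them also called with all libraries, 2 were lower, and the median log2 fold change was 0.08. Of all genes, 2155 were higher and 2487 lower without this library. Over the 8 fits that left out 1 library each, 23 to 40 genes were higher, and 20 of the 33 were called in every one of them, among them Rps27l, Rps26, Rpl27a, Rpl30, Rpl22, Rplp0 and Rplp1. When counts were scaled by library totals alone, 6 of the 80 genes were higher (Rpl27a, Rpl30, Rplp0, Rps26 and Rps27l among them). Another 3 were lower (Rpl10a, Rpl22l1 and Rpl29). Of all 13960 genes, 1301 were higher and 3673 lower under this scaling. The share of ribosomal protein genes called higher was thus not above that of all genes. The median of the 80 genes was then 0.04 and that of all genes -0.07, so their distance, 0.115, was close to the 0.114 under TMM. Of the genes described above, DESeq2 did not call Rps27a, Rps13, Rpl23a, Rpl41 and Rpl29, limma on FPKM did not call Rps27a, Rps13, Rpl23a and Rplp2, and upper-quartile scaling did not call Rps27a, Rps6 and Rplp2. The direction of the median did not flip under any scaling tried.

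**Figure D4:**
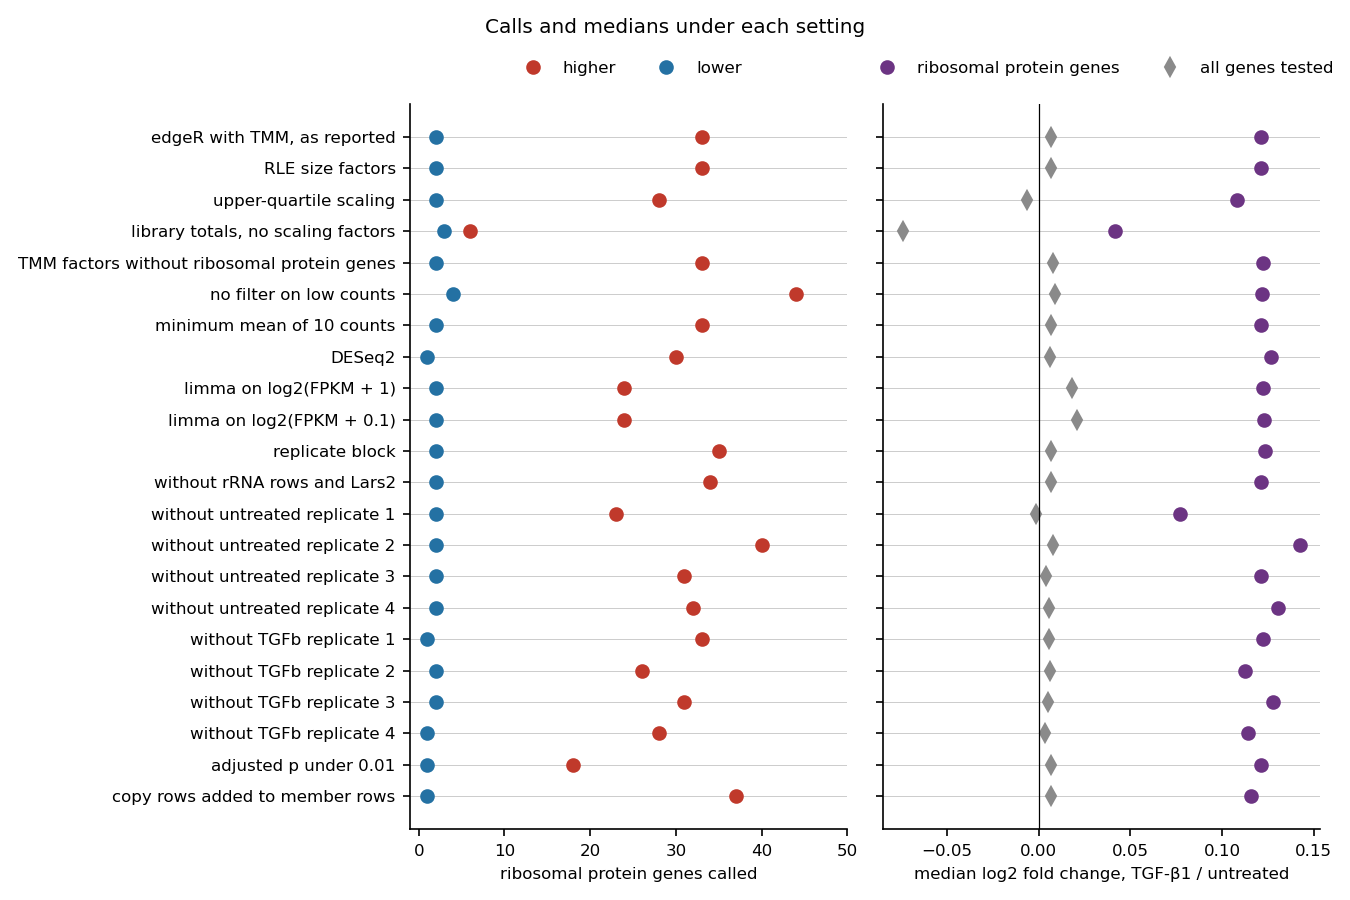
Left, the number of tested ribosomal protein genes called higher (red) and lower (blue) under each setting; right, the median log2 fold change of those genes (purple circles) and of all genes tested (grey diamonds). The count of higher genes falls to 23 without untreated replicate 1 and to 6 with library totals, where the median of all genes also shifts below 0.

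Some ribosomal proteins fall outside the name rule. Rack1, the scaffold on the head of the small subunit, rose from 1342 ± 75.1 to 1521 ± 65.3 CPM (SD, n = 4, log2 fold change 0.18, edgeR adjusted p = 0.00113). Fau, made as a fusion with a ubiquitin-like protein, was not called (0.065, edgeR adjusted p = 0.297). Under library totals Rack1 was not called (adjusted p = 0.0526).

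Genes of the pathways that make and use ribosomal proteins were taken from lists chosen with results of these data known, so that their counts are descriptions, to be read against 17.6% higher and 18.5% lower among all genes tested. Of 24 translation factors and other TOP genes, 8 rose and 0 fell in edgeR (median 0.07), with 9 and 0 at an unadjusted p under 0.05 and 8 and 0 in DESeq2. Pabpc4, a poly(A)-binding protein, rose by 0.27 and Eef1g, an elongation factor subunit, by 0.19. Of the small subunit assembly factors, 13 of 38 rose and 0 fell (16 and 1 at an unadjusted p under 0.05 in edgeR, 11 and 0 in DESeq2), with Utp20 (0.33, edgeR adjusted p = 3.4e-06) and Heatr1 (0.29) in front. Of the large subunit assembly factors, 19 of 51 rose and 0 fell (28 and 0 at an unadjusted p under 0.05 in edgeR, 18 and 0 in DESeq2), led by Las1l (0.35) and Gtpbp4 (0.30). The medians of both lists, 0.12 and 0.13, were close to the 0.12 of the ribosomal protein genes. Scaled by library totals, 3 of the 24 TOP genes were higher and 2 lower, 6 of the 38 were higher and 1 lower, and 10 of the 51 higher and 2 lower.

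RNA polymerase III and its factors, which transcribe 5S rRNA, had 8 of 16 higher and 1 lower, Polr3d rising by 0.38 and Gtf3c1 by 0.21 in edgeR, while Gtf3c2 was lower (-0.25). Library totals left 2 of the 16 higher and 2 lower. DESeq2 called 4 of the 16 higher and did not call Gtf3c2 (adjusted p = 0.0893), which edgeR also lost without untreated replicate 2 (0.132) or 4 (0.0871) or TGFb replicate 2 (0.108) or 3 (0.0909). RNA polymerase I genes had 3 of 15 higher, a share near that of all genes, and under library totals 0 were higher and 1 lower, with 2 higher and 1 lower in DESeq2 and 7 higher and 1 lower at an unadjusted p under 0.05 in edgeR. Rrn3 (0.16) was called with TMM but not with library totals (edgeR adjusted p = 0.207), and Ubtf, which opens rRNA genes, was lower (-0.14), a call lost without untreated replicate 2 (edgeR adjusted p = 0.0580) or TGFb replicate 4 (0.0525). Of the proteins that guide rRNA modification, 3 of 11 rose and 0 fell in edgeR (6 and 0 at an unadjusted p under 0.05, 3 and 0 in DESeq2), Naf1 by 0.41 and Nhp2 by 0.23; library totals left 1 higher, without Nhp2 (edgeR adjusted p = 0.0812). Among 12 ribosomal protein chaperones and importins 3 rose and 1 fell, but 2 were higher and 3 lower under library totals, with Ipo5 at 0.20, Ipo7 at 0.22 and Ipo9 at -0.13. Among 15 nucleolar scaffold genes 3 rose, Nol10 (0.31) and Mybbp1a (0.17) included, and the proliferation marker Mki67 fell by 3.04. Library totals gave 1 higher and 2 lower there, and Mybbp1a was not called (edgeR adjusted p = 0.0669).

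Mitochondrial ribosomal protein genes, whose products build the separate ribosome of mitochondria, had 14 of 77 higher and 2 lower with a median of 0.09. Their share of higher genes was thus near the 17.6% of all genes. Mrpl52 (0.34) and Mrpl20 (0.28) rose, and Mrps6 (-0.38) and Mrps18a (-0.23) fell. Without TGFb replicate 2, 9 of them were higher, and under library totals 4 were higher and 3 lower. None of 10 non-coding snoRNA host genes was called in edgeR (0 at an unadjusted p under 0.05, 0 in DESeq2). Gas5, the one with the most counts, had a value of 0.10 (adjusted p = 0.193) and passed without TGFb replicate 3 (0.14, adjusted p = 0.0477). Of the ribosomal protein genes, 30 of the 80 tested (37.5%) carry an annotated snoRNA inside, against 1.54% of the other tested coding genes, and their median of 0.12 was close to the 0.13 of those without.

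Among regulators, 5 of 25 mTORC1 and LARP1 pathway genes rose, a share near that of all genes, and 3 fell. The balance turned under library totals, with 3 higher and 7 lower, where 1301 of all 13960 genes were higher and 3673 lower. Rheb, the GTPase that activates mTORC1, rose by 0.36 (edgeR adjusted p = 1.66e-07) and Eif4ebp1, a translation repressor it inactivates, by 0.37, while the mTORC1 inhibitor Sesn1 fell by 0.62 and Eif4ebp2 by 0.26. In the MYC network 2 of 12 rose, Myc (0.21) and Max (0.14), and 3 fell, including Mxd4 (-0.29) and Mxd3 (-2.74). Under library totals 5 of the 12 were lower and 0 higher, and neither Myc nor Max was called. With TMM, Max was lost without untreated replicate 1 (edgeR adjusted p = 0.0531). Of 9 genes of the p53 response to free ribosomal proteins 3 rose and 3 fell, and under library totals 3 were higher and 5 lower. Cdkn2a, which codes for ARF, rose by 1.62 and Cdkn1a, the p53 target p21, by 0.45, and Hexim1 (-0.26) and Trim28 (-0.12) fell. Of 18 ribosome rescue and quality control genes 3 rose, among them Hbs1l (0.20) and Abce1 (0.17), and 0 fell in edgeR (3 and 0 at an unadjusted p under 0.05 and in DESeq2), again a share of higher genes near that of all genes. Library totals gave 1 higher and 1 lower, and Abce1 was not called (edgeR adjusted p = 0.124).

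**Figure D5:**
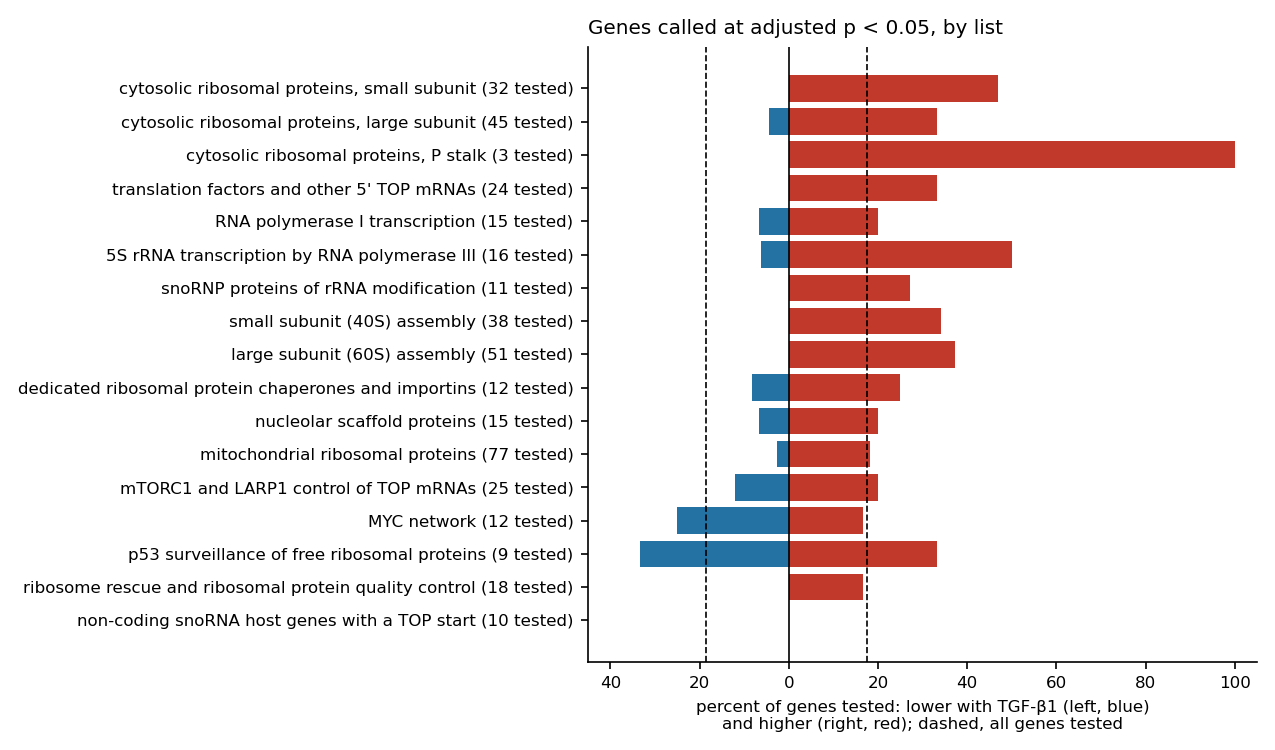
Share of tested genes called lower (left, blue) and higher (right, red) after TGF-β1 for ribosomal protein genes by subunit and for each related list, with the number tested in brackets; dashed lines mark the shares among all genes tested, 18.5% and 17.6%. All 3 P stalk genes are higher, and in both assembly factor lists no gene is lower.

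Markers of some other cell types moved with the treatment, to be read against 17.6% higher and 18.5% lower among all genes tested. The summed levels of macrophage and endothelial markers overlapped between groups. All 10 cardiomyocyte markers fell, their summed level going from 783 to 854 CPM in untreated libraries to 424 to 506 CPM in treated ones, and none was at 0. Of 7 tested macrophage markers 1 rose and 2 fell (summed 191 to 229 against 169 to 202 CPM), and of 7 tested endothelial markers 2 rose and 2 fell (76.0 to 77.0 against 71.1 to 78.3 CPM). Of 5 tested mural cell markers 3 rose and 1 fell (1059 to 1094 against 1160.5 to 1259 CPM). Of 8 epicardial markers 3 fell (1204 to 1260.5 against 968 to 998 CPM). No red cell marker was tested, at 0.398 to 1.13 CPM in sum, with Hba-a1, Hba-a2, Hbb-bt and Slc4a1 at 0. Of the fibroblast markers 3 rose and 6 fell (31292 to 32926 against 35281 to 37510.5 CPM). In bulk RNA, fewer cells of a type and less RNA per cell cannot be told apart, and the part of these markers and of the cell division genes in the ribosomal protein result was not tested.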

How the data were processed

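Gene counts and FPKM were deposited by the authors for 4 untreated and 4 TGF-β1 libraries. Per the submitters' processing notes, HISAT2, CASAVA, Subread and featureCounts were used; versions, read length, strand setting and the treatment of reads that match several places are not given in the sources used here. Those notes name GRCm38 and mm10, but the series text names mm39, and the coordinates of all 84 genes in the deposited count table overlap the same genes in GRCm39 (GENCODE M39). FPKM values were deposited as made by the authors and were used for levels per length and in limma.

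Counts were tested with edgeR 4.0.16 (R 4.3.3): filterByExpr, TMM, quasi-likelihood F test over 13960 genes, Benjamini-Hochberg adjustment, call at 0.05. CPM use TMM-scaled totals of the filtered genes, and the SE is the log2 fold change over the root of F. Paralogue ratios were compared with exact permutation tests. Scripts were tested on simulated counts. DESeq2 1.42.0 and limma 3.58.1 (log2(FPKM + 1) and log2(FPKM + 0.1)) were alternatives, next to other scalings, filters, a replicate block and leaving out each library. The genes and lists were chosen with earlier results of these data known. Members named are the 4 largest called changes each way per subunit, the 5 highest and 5 lowest in FPKM, paralogues with their partners, and Rpl5, Rpl11, Rps6, Rps19, Rpsa, Rps27a and the P stalk; other members are named only in lists of calls or for their copies, chosen after their values were seen. A few genes are not reported here by name and are left out of the figures, but count in all totals. From each related list, up to 2 called genes per direction are named, those with the smallest p in edgeR. Where none was called, the gene with the most counts is named. Biological coefficient of variation was 6.27%.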

Additional observations from a re-analysis of the deposited data

Results flagged for a closer look

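Of 74 groups of 4 libraries tested, over the levels of 36 named ribosomal protein genes and the family's share of all counts, 6 held a library far from the other 3, and chance alone marks about 1 in 20 groups. Untreated replicate 4 was high for Rps27a, at 239.8 CPM. Untreated replicate 1 was low for Rpl5, at 494.3 CPM, and untreated replicate 3 was high for Rps10, at 3.44 CPM. TGFb replicate 1 was low for Rpl27a, at 527.7 CPM, and for Rpl10, at 697.5 CPM. For Rpl3l, TGFb replicate 3 was high, at 0.0704 CPM, on a gene with 5 counts in all.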

How the results depend on the processing

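Leaving out each library gave 23 to 40 higher and 1 to 2 lower ribosomal protein genes, and medians of 0.08 to 0.14. It called 2155 to 2286 of all genes higher. It gave 37 to 47 higher and 0 to 3 lower of 131 ribosome production and assembly genes (46 and 2 with all libraries), 8 to 10 higher TOP genes, and 9 to 14 higher and 2 to 3 lower mitochondrial ribosomal protein genes. The share of counts ranged from 3.35% to 3.46% untreated and 3.47% to 3.51% treated. Library totals gave 6 higher of 80 ribosomal protein genes, where 1301 of all 13960 genes were higher. They also gave 19 higher and 6 lower assembly genes, 3 higher and 2 lower TOP genes and 4 higher mitochondrial genes. An adjusted p under 0.01 left 18 higher and 1 lower ribosomal protein genes, DESeq2 left 30 higher and 1 lower and 1 lower assembly gene, no filter gave 44 higher and 4 lower, and the sums with copy rows gave 37 higher and 1 lower. The sums without untreated replicate 1 gave 24 higher. Without rRNA rows and Lars2 the share was 3.46% ± 0.182 untreated and 3.56% ± 0.0386 treated (SD, n = 4). The replicate block gave 35 higher and 2 lower, with 2416 higher and 2555 lower among all genes. Same-numbered libraries correlated at -0.18 to 0.11 and differently numbered ones at -0.20 to 0.24. With so few libraries, these values cannot tell whether equal numbers share a litter or preparation. RLE, upper-quartile scaling and limma on FPKM gave 33, 28 and 24 higher. Among all genes RLE gave 2453 higher, upper-quartile scaling 2207, and limma 2148 to 2154. Among the genes named by the rule above, none that was called in the reported fit or in the alternative changed sign between them. Several genes that were not called did change sign across settings, such as Rps15 (log2 fold change -0.068 to 0.045) and Rpl34 (-0.10 to 0.17). Rps2, named outside that rule for its copies, went from -0.23 (not called) on its row to 0.14 (called higher) on the sum. Genes under about 3 CPM, such as Rpl29 and Rpl36al, had standard errors over 0.2.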
